A study of Mus musculus with 49 samples.

Results

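Doc2b, Bcl6 and C1ql3 are 3 genes whose transcripts were low in the CA3 pyramidal layer of the hippocampus of double-negative mice. All probe sets with 1 of these gene symbols were taken, which gave 7 of the 22626 probe sets tested and 3 of 11807 named genes. Doc2b had 2 probe sets (1420666_at and 1420667_at), Bcl6 had 2 (1421818_at and 1450381_a_at) and C1ql3 had 3 (1425175_at, 1425176_at and 1451620_at). The genes had been picked on the arrays of double-negative mice, all 3 as low in CA3 against dentate gyrus (DG) and Doc2b and Bcl6 as low against CA1 as well. Values of those mice are therefore described here without a test, except for C1ql3 in CA1, which the choice did not use.

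Cell layers of CA3, CA1 and DG were laser-captured from stained sections of female mice at 6.1 months of age, and 49 Affymetrix HT-MG-430A arrays from 17 mice were available. rTg4510 mice carried the CaMKIIα-tTA transgene together with a tTA-responsive human tau transgene with the P301L mutation. tTA mice carried CaMKIIα-tTA alone, and double-negative (DN) mice carried neither transgene. The responder and activator lines came from different inbred strains, so all genotypes shared a mixed background. The CaMKIIα promoter drives tTA in forebrain excitatory neurons, and tau expression in rTg4510 mice depends on it. CA3 was profiled in 6 rTg4510, 5 tTA and 5 DN mice, CA1 in 5, 5 and 6, and DG in 6, 5 and 6. Animal numbers of DN mice lay apart from those of the transgenic mice, and no processing batch was given, so a difference from DN mice and a batch cannot be told apart.

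Doc2b encodes a C2-domain protein of synaptic terminals that binds calcium and SNARE proteins and takes part in spontaneous and asynchronous transmitter release. Bcl6 encodes a zinc-finger transcriptional repressor, known from germinal center B cells and, in the cortex, from the switch of neural progenitors to neurons, where it silences Notch targets. C1ql3 encodes a secreted protein of the C1q family that neurons release at synapses, where it binds the adhesion receptor Adgrb3.

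Start-site windows from the RefSeq promoter table, build GRCm38.p6, show what the array does not measure, the DNA in front of these genes. Each window ran from 250 bases before to 50 bases after a start site. The table held 2 windows for Bcl6 and 1 for C1ql3. Capitals mark 3 motifs, searched on both strands: TTCNNNGAA, the palindromic core shared by STAT and Bcl6 binding sites, the E-box CACGTG, and CGTCA, a short form of the cAMP response element. Bcl6 window 1 lay at chr16:23988803-23989102 and window 2 at chr16:23981234-23981533, and the C1ql3 window at chr2:13010815-13011114, all on the minus strand.
Bcl6 window 1: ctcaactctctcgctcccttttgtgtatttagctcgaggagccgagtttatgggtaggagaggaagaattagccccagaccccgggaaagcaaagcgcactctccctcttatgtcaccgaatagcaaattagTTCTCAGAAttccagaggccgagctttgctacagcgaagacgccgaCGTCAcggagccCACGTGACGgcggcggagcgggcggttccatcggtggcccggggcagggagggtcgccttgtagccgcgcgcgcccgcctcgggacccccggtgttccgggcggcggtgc
Bcl6 window 2: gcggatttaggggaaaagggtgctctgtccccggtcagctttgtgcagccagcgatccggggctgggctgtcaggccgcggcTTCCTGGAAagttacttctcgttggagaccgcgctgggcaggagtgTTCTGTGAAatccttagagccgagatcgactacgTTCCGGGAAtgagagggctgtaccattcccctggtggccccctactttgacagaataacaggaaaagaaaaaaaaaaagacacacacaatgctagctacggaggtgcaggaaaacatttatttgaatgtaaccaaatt
C1ql3 window: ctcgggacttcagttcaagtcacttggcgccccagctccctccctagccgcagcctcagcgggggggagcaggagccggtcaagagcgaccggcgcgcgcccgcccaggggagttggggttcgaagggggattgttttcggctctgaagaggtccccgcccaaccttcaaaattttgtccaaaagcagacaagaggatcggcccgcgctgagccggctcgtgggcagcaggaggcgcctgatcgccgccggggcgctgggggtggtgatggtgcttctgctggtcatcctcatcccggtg
In Bcl6 window 1 the core TTCNNNGAA began at position -118 from the start site, and CACGTG at -60 overlapped the other-strand form of CGTCA at -56, with a further CGTCA at -72. Bcl6 window 2 held TTCNNNGAA 3 times, at -168, -122 and -88. Of 32851 windows of this length in the table, 8.3% held TTCNNNGAA, 7.15% held CACGTG and 20.8% held CGTCA. None of the 3 letter strings was found in the C1ql3 window. These matches describe the sequence and were not tied to any expression value.

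Values below are log2 units from RMA, which puts all arrays on a common distribution, so 1 unit is a 2-fold difference. A level of 5.04 was the median over all probe sets. No detection calls were used, so a value far below it cannot be told from background, and RMA understates differences of dim probe sets. The CA3 and DG labels fitted their markers. The mean of 5 CA3 pyramidal markers was 7.32 to 8.01 in CA3 arrays and 5.04 to 6.56 in the others. The mean of 6 dentate granule markers was 6.92 to 8.03 in DG arrays and 4.04 to 6.11 in the others. The mean of 3 CA1 pyramidal markers was 6.73 to 9.57 in CA1 arrays and 4.78 to 7.005 in the others. These ranges overlapped, as the CA1 array of rTg4510 mouse4653 (6.73) lay below the CA3 array of tTA mouse4592 (7.005).

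Doc2b stood well above the median level of 5.04 in CA1 and DG of DN mice, was near it in CA1 of tTA mice, and lay near the bottom of the scale in CA3 of every genotype. For 1420666_at, CA3 arrays read 3.03, 3.10 and 3.37 (lowest, median and highest) in rTg4510 mice, 3.58, 3.17, 3.39, 3.10 and 3.33 in tTA mice and 3.04, 3.28, 2.75, 3.16 and 3.20 in DN mice. The 3 genotypes overlapped fully in CA3. In CA1 the probe set read 3.79, 4.40, 3.71, 3.29 and 4.31 in rTg4510 mice and 4.26, 4.94, 5.07, 6.00 and 5.21 in tTA mice, against 7.12, 7.56 and 7.61 (lowest, median and highest) in DN mice. Every DN array lay above every tTA and rTg4510 array there. In DG it read 2.96, 3.31 and 3.44 in rTg4510 mice and 3.60, 3.57, 3.65, 3.82 and 3.45 in tTA mice, against 6.55, 6.79 and 7.17 in DN mice. DG arrays of both transgenic genotypes thus sat at the level of CA3, whereas DG arrays of DN mice did not.

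**Figure D1:**
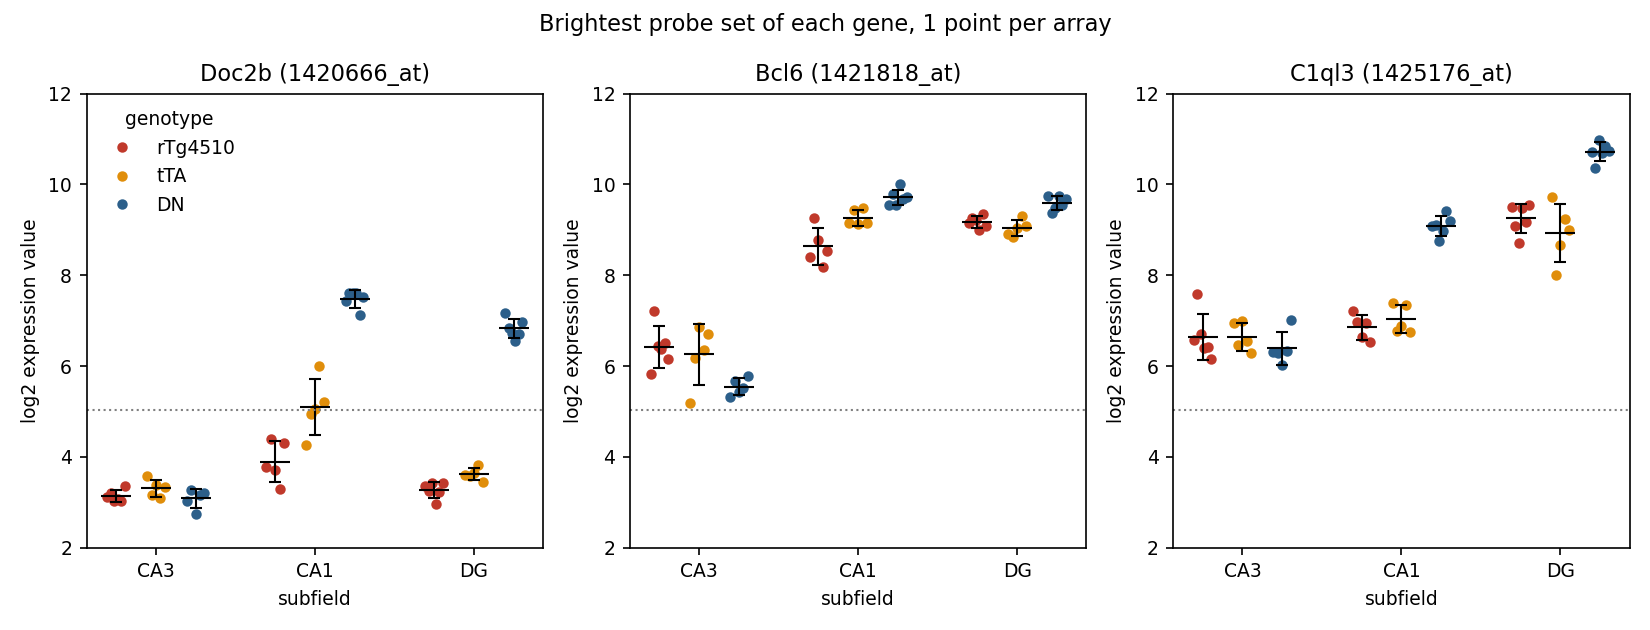
Log2 expression value (vertical axis) of the brightest probe set of Doc2b, Bcl6 and C1ql3 by subfield, 1 point per array, with rTg4510, tTA and DN mice from left to right within each subfield; black bars are mean ± SD and the dotted line is the median over probe sets, 5.04. Doc2b stood above that line in DN mice in CA1 (mean 7.48) and DG (mean 6.83), and below it in CA3 of all 3 genotypes.

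The second Doc2b probe set, 1420667_at, gave the same order. Its CA1 values were 3.66, 3.77, 3.54, 3.10 and 3.43 in rTg4510 mice and 3.95, 5.28, 5.16, 5.51 and 4.68 in tTA mice, against 7.09, 7.28 and 7.53 (lowest, median and highest) in DN mice. The lowest tTA array, at 3.95, still lay above the highest rTg4510 array, at 3.77. In DG it averaged 3.13 ± 0.16 in rTg4510 mice (SD, n = 6) and 3.53 ± 0.36 in tTA mice (n = 5), against 6.87 ± 0.11 in DN mice (n = 6). In CA3 it averaged 3.003 ± 0.28 in rTg4510 mice (n = 6), 3.06 ± 0.14 in tTA mice (n = 5) and 2.99 ± 0.25 in DN mice (n = 5). Over the 9 group means the 2 Doc2b probe sets correlated at r = 0.998, and their deviations from the group means over the 49 arrays at r = 0.39.

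Ordered by group mean of 1420666_at, the levels were 7.48 in DN CA1, 6.83 in DN DG, 5.10 in tTA CA1, 3.899 in rTg4510 CA1, 3.62 in tTA DG, 3.31 in tTA CA3, 3.28 in rTg4510 DG, 3.14 in rTg4510 CA3 and 3.09 in DN CA3. The only neighbors in this order whose arrays did not overlap were DN DG and tTA CA1. The drop in CA3 of DN mice that chose the gene was -3.74 against DG and -4.39 against CA1 for 1420666_at, and -3.88 and -4.29 for 1420667_at.

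Bcl6 had its lowest levels in CA3 in every genotype, by both probe sets and against both other subfields. For 1421818_at, CA3 arrays read 5.83, 6.41 and 7.21 (lowest, median and highest) in rTg4510 mice, 5.18, 6.17, 6.87, 6.36 and 6.70 in tTA mice and 5.31, 5.66, 5.44, 5.51 and 5.79 in DN mice. All 6 rTg4510 arrays lay above all 5 DN arrays, and tTA arrays overlapped with both. In CA1 it read 8.40, 9.26, 8.78, 8.19 and 8.54 in rTg4510 mice and 9.14, 9.43, 9.12, 9.49 and 9.16 in tTA mice, against 9.54, 9.69 and 10.01 in DN mice. In CA1 the DN arrays stood above all transgenic arrays, and 1 of the 5 rTg4510 arrays reached into the tTA range. In DG it read 8.99, 9.18 and 9.36 in rTg4510 mice and 8.91, 8.84, 9.04, 9.29 and 9.08 in tTA mice, against 9.37, 9.62 and 9.75 in DN mice.

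The dimmer Bcl6 probe set, 1450381_a_at, averaged 5.01 ± 0.43 in rTg4510 mice (SD, n = 6), 5.05 ± 0.70 in tTA mice (n = 5) and 4.54 ± 0.10 in DN mice (n = 5) in CA3. In CA1 it averaged 6.19 ± 0.49 in rTg4510 mice (n = 5) and 6.49 ± 0.22 in tTA mice (n = 5), against 7.33 ± 0.25 in DN mice (n = 6). In DG it averaged 6.62 ± 0.35 in rTg4510 mice (n = 6) and 6.60 ± 0.44 in tTA mice (n = 5), against 6.94 ± 0.29 in DN mice (n = 6), with overlap of all 3 genotypes. Ordered by the group mean of 1421818_at, the levels were 9.71 in DN CA1, 9.60 in DN DG, 9.27 in tTA CA1, 9.17 in rTg4510 DG, 9.03 in tTA DG, 8.63 in rTg4510 CA1, 6.42 in rTg4510 CA3, 6.26 in tTA CA3 and 5.54 in DN CA3. Only rTg4510 CA1 and rTg4510 CA3 were neighbors without overlap. The values that chose Bcl6 in DN mice were -4.06 against DG and -4.17 against CA1 for 1421818_at, and -2.41 and -2.80 for 1450381_a_at.

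C1ql3 was brightest in DG of every genotype, and in CA1 it was higher in DN mice than in both transgenic genotypes. For 1425176_at, CA3 arrays read 6.16, 6.50 and 7.59 (lowest, median and highest) in rTg4510 mice, 6.94, 6.46, 6.997, 6.56 and 6.29 in tTA mice and 6.30, 6.30, 6.03, 6.34 and 7.01 in DN mice. The 3 genotypes overlapped in CA3. In CA1 it read 7.21, 6.97, 6.64, 6.95 and 6.53 in rTg4510 mice and 7.39, 6.78, 6.88, 7.35 and 6.76 in tTA mice, against 8.74, 9.09 and 9.41 in DN mice. In DG it read 8.71, 9.33 and 9.55 in rTg4510 mice and 9.73, 8.01, 8.66, 9.25 and 9.002 in tTA mice, against 10.37, 10.73 and 10.98 in DN mice. DN arrays stood clear above both transgenic genotypes in CA1 and in DG.

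The other C1ql3 probe sets spread more. For 1451620_at, CA1 arrays read 5.72, 5.86, 3.62, 3.40 and 4.12 in rTg4510 mice and 5.97, 4.33, 6.05, 7.30 and 5.67 in tTA mice, against 8.49, 8.72 and 8.94 in DN mice. For 1425175_at they read 6.31, 5.68, 4.58, 4.85 and 4.78 in rTg4510 mice and 6.29, 3.93, 6.15, 7.34 and 5.83 in tTA mice, against 8.26, 8.92 and 9.12 in DN mice. The DN range was narrow and no transgenic array reached it. In CA3, 1451620_at averaged 4.71 ± 1.19 in rTg4510 mice (SD, n = 6), 4.46 ± 1.39 in tTA mice (n = 5) and 3.92 ± 0.98 in DN mice (n = 5), and 1425175_at averaged 5.39 ± 1.16, 5.21 ± 0.87 and 4.48 ± 1.05 in the same groups. In DG, 1451620_at averaged 9.06 ± 0.25 in rTg4510 mice (n = 6), 8.90 ± 0.21 in tTA mice (n = 5) and 10.46 ± 0.16 in DN mice (n = 6). Ordered by the group mean of 1425176_at, the levels were 10.72 in DN DG, 9.25 in rTg4510 DG, 9.08 in DN CA1, 8.93 in tTA DG, 7.03 in tTA CA1, 6.86 in rTg4510 CA1, 6.65 in tTA CA3, 6.64 in rTg4510 CA3 and 6.40 in DN CA3. Neighbors did not overlap between DN DG and rTg4510 DG and between tTA DG and tTA CA1. In DN mice the value that chose C1ql3 was -4.33 for 1425176_at, -5.91 for 1425175_at and -6.53 for 1451620_at against DG.

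Set against DN mice, all 7 probe sets were lower without overlap in CA1 of rTg4510 mice, where 7.45% of all probe sets were, and all 7 in CA1 of tTA mice, where 6.41% were. In DG, 6 of 7 were lower without overlap in rTg4510 mice, against 3.05% of all probe sets, and 6 of 7 in tTA mice, against 5.9%. In CA3, 0 of 7 were lower in rTg4510 mice (2.08% of all) or in tTA mice (5.67%), and 1 of 7, Bcl6 1421818_at, was higher in rTg4510 mice without overlap (2.36%). The choice of low CA3 values in DN mice bears on these counts, and both comparisons share the DN arrays, so nothing is read from them. Doc2b differed from DN by -3.58 and -3.79 in CA1 and by -3.55 and -3.74 in DG in rTg4510 mice, and by -2.38 and -2.37 in CA1 and by -3.21 and -3.34 in DG in tTA mice. Cell markers in DG differed from DN mice as well. The mean of 13 microglial markers was 6.12 to 6.585 in rTg4510, 6.08 to 6.70 in tTA and 4.83 to 5.34 in DN arrays. The mean of 6 granule markers overlapped, at 7.52 to 8.03, 6.92 to 7.63 and 7.39 to 7.85. The part of cell composition in the DG values was not tested.

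**Figure D2:**
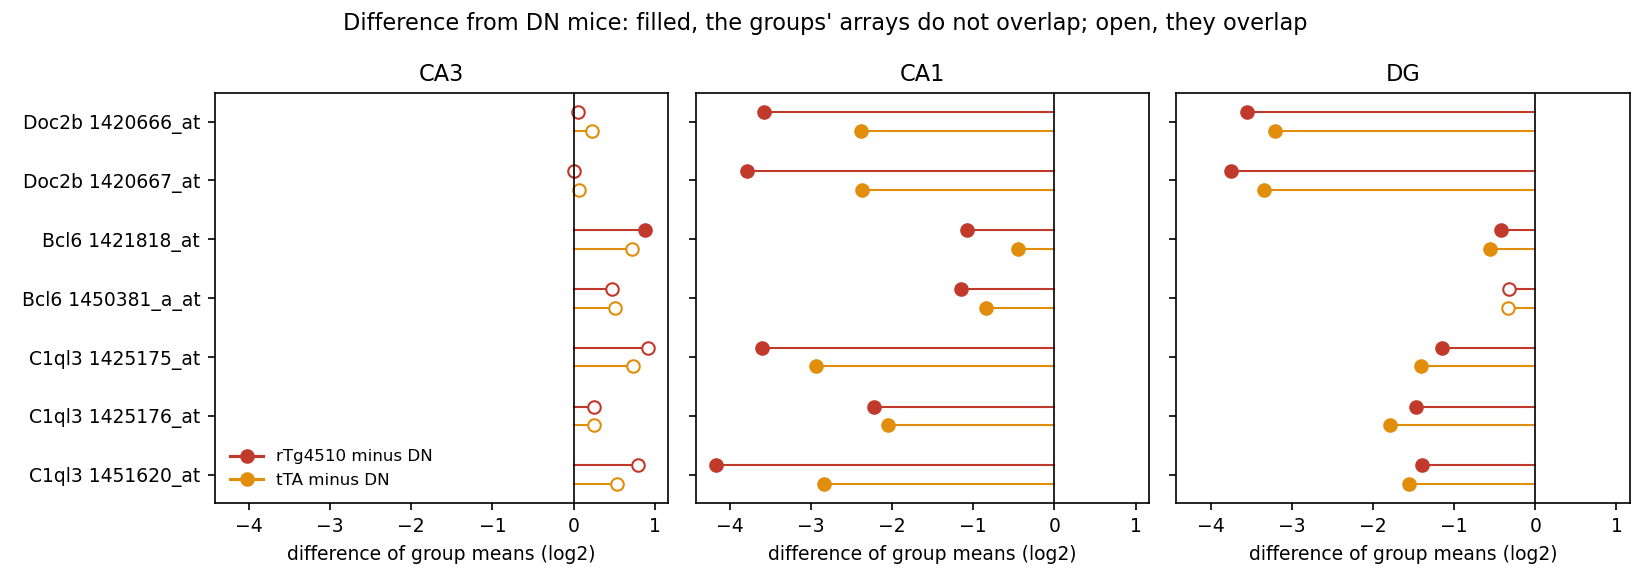
Difference of group means from DN mice (horizontal axis, log2) for the 7 probe sets in CA3, CA1 and DG, with rTg4510 above tTA; filled points are comparisons in which the arrays of the 2 groups do not overlap, and no test was made. Points lay left of 0 in CA1 and DG, down to -4.17 for C1ql3 1451620_at in CA1 of rTg4510 mice, and at or right of 0 in CA3.

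C1ql3 in CA1 was not among the values used in the choice and was tested. The choice was still made with earlier results of these data known, and on DN arrays of the same mice. It was lower in rTg4510 than in DN mice for all 3 probe sets, by -3.61 ± 0.45 (SE), -2.23 ± 0.15 and -4.17 ± 0.48 for 1425175_at, 1425176_at and 1451620_at (limma, Benjamini-Hochberg adjusted p = 3.18e-05, 3.09e-07 and 1.78e-05). It was lower in tTA than in DN mice by -2.94 ± 0.45, -2.05 ± 0.15 and -2.84 ± 0.48 (limma, adjusted p = 0.000583, 4.17e-06 and 0.0012). Lower calls were made for 12.3% of all probe sets in rTg4510 against DN and for 8.85% in tTA against DN. The markers of other cells moved with these comparisons. In rTg4510 against DN CA1, all 13 microglial, 8 astrocyte and 9 oligodendrocyte markers, 9 of 11 interneuron and 6 of 8 endothelial and mural markers were higher and all 3 CA1 pyramidal markers lower, with 11.1% of all probe sets higher. The mean of the CA1 pyramidal list was 6.73 to 8.22 in rTg4510 and 9.29 to 9.57 in DN arrays, and that of the microglial list 6.61 to 7.55 in rTg4510 and 5.01 to 5.40 in DN arrays. In tTA against DN CA1, 4 of 13 microglial, 4 of 8 astrocyte, 4 of 9 oligodendrocyte, 2 of 11 interneuron and 2 of 8 endothelial and mural markers were higher and 1 of 3 CA1 pyramidal markers lower, with 7.31% of all higher. The mean of the CA1 pyramidal list was 8.57 to 9.51 in tTA and that of the microglial list 5.45 to 5.86. The part of these shifts in the C1ql3 result was not tested. In captured layers, fewer cells of a type and less RNA per cell cannot be told apart.

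rTg4510 mice differ from tTA mice by the tau transgene, and the comparison asked whether its presence goes with a difference in these genes. In CA1, 3 of 7 probe sets were called lower and none higher, against 4.62% of all probe sets called lower. Doc2b was lower by both probe sets, 1420666_at (-1.20 ± 0.26, SE, limma, adjusted p = 0.00738) and 1420667_at (-1.42 ± 0.22, adjusted p = 0.00125), and these calls held without any single mouse. Its rTg4510 means, 3.899 and 3.50, cannot be told from background, so these differences can understate the change and no fold is given. Bcl6 1421818_at was 1.55-fold lower (-0.63 ± 0.16, adjusted p = 0.0198), but the call was lost without rTg4510 mouse4535 (adjusted p = 0.0508), without tTA mouse4626 (adjusted p = 0.0502) and with only these 2 genotypes in the model (adjusted p = 0.0788). Its second probe set differed by -0.31 (95% confidence interval -0.73 to 0.11, limma, adjusted p = 0.373). C1ql3 was not called, at -0.67 (interval -1.66 to 0.32), -0.17 (-0.51 to 0.17) and -1.32 (-2.39 to -0.26) for 1425175_at, 1425176_at and 1451620_at. Without tTA mouse4580, the lowest C1ql3 array of its group by 1425175_at and 1451620_at, those 2 probe sets also passed and 5 of 7 were called, and without rTg4510 mouse4549, 1451620_at passed (adjusted p = 0.0395).

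**Figure D3:**
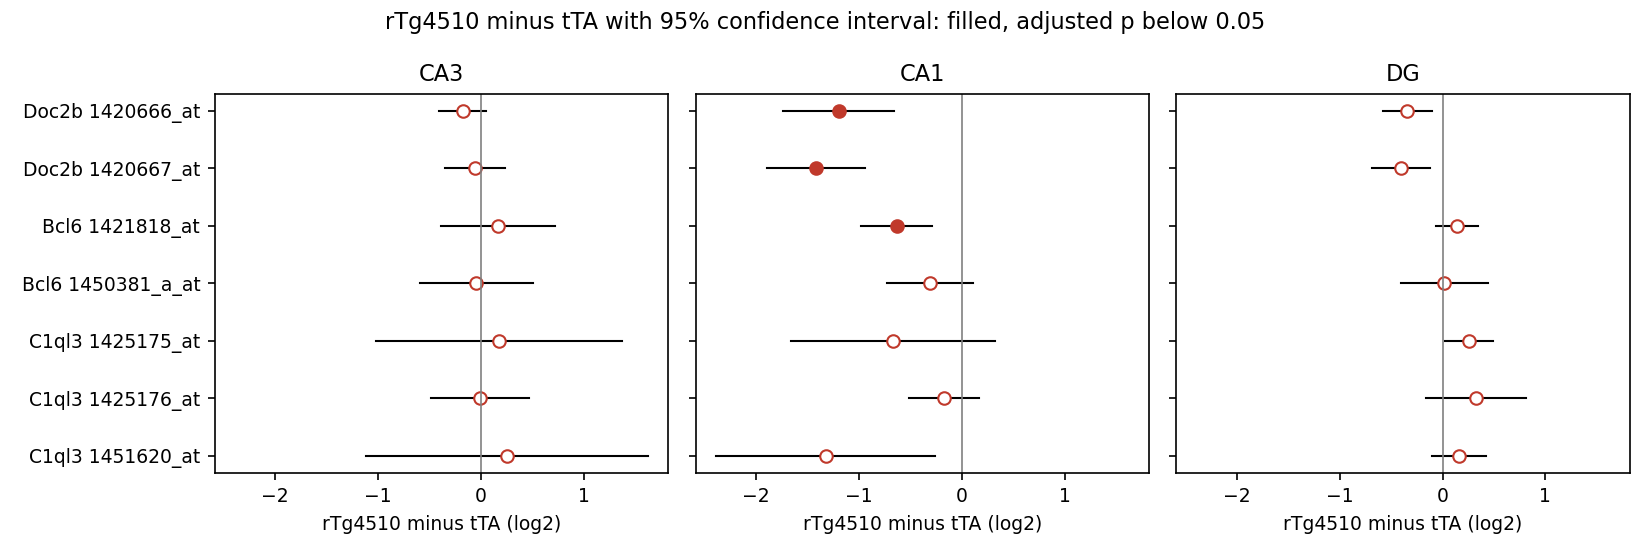
rTg4510 minus tTA (horizontal axis, log2) with its 95% confidence interval for the 7 probe sets in CA3, CA1 and DG; filled points passed an adjusted p of 0.05 in limma. Both Doc2b probe sets and Bcl6 1421818_at passed in CA1, and 0 of 7 passed in CA3 or DG.

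In CA3, 0 of 7 probe sets were called between rTg4510 and tTA mice (1.13% of all were called), and their differences ran from -0.18 to 0.25. The intervals for C1ql3 in CA3 were wide, -1.12 to 1.62 for 1451620_at, so a difference of up to that size was not detectable with these arrays. In DG, 0 of 7 were called (0.782% of all). Doc2b in DG differed by -0.34 (interval -0.58 to -0.11, limma, adjusted p = 0.141) and -0.40 (-0.68 to -0.12, adjusted p = 0.152), from means already at 3.28 and 3.13 in rTg4510 mice, against 3.62 and 3.53 in tTA mice. For 1420666_at, the highest rTg4510 DG array, 3.44, lay just under the lowest tTA array, 3.45.

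Other cell markers moved with the CA1 comparison. In rTg4510 against tTA CA1, all 3 CA1 pyramidal markers were lower, and 10 of 13 microglial, 6 of 8 astrocyte, 5 of 9 oligodendrocyte, 8 of 11 interneuron and 4 of 8 endothelial and mural markers were higher, with 6.01% of all probe sets higher. The mean level of the CA1 pyramidal list was 6.73 to 8.22 in rTg4510 and 8.57 to 9.51 in tTA arrays, and that of the microglial list 6.61 to 7.55 in rTg4510 and 5.45 to 5.86 in tTA arrays. Without detection calls, none of these markers can be called absent from an array. Their part in the Doc2b and Bcl6 results was not tested.

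The rTg4510 minus tTA difference was also set side by side between subfields. For Doc2b a large difference between subfields could come out only 1 way, with the larger fall in CA1. In tTA mice its 2 probe sets averaged 3.31 and 3.06 in CA3 and 3.62 and 3.53 in DG. These means lay near the 3.09 and 2.99 of DN CA3, so only a small fall could be seen there (-0.34 and -0.40 in DG). Only CA1 of tTA mice (5.10 and 4.92) had room for a larger fall. The values below therefore do not show that the subfields responded differently. Measured as the rTg4510 minus tTA difference in CA3 minus that in CA1, the Doc2b value was 1.03 ± 0.24 (SE) for 1420666_at and 1.36 ± 0.24 for 1420667_at (limma, adjusted p = 0.00879 and 0.0011), and these calls held without any single mouse. As the difference in CA1 minus that in DG it was -0.86 ± 0.24 and -1.02 ± 0.24 (limma, adjusted p = 0.0218 and 0.0064). For CA1 against DG, the call for 1420666_at was lost without rTg4510 mouse4535, mouse4600 or mouse4653 or tTA mouse4626 or mouse4637, with adjusted p between 0.0581 and 0.0875, and that for 1420667_at without tTA mouse4626 (adjusted p = 0.0559). For CA3 against CA1, 2 of 7 probe sets were called, with 3.88% of all, and for CA1 against DG 2 of 7, with 5.45%. For CA3 against DG, 0 of 7 were called, with 0.00884% of all. Bcl6 1421818_at reached 0.81 ± 0.26 and -0.78 ± 0.26 in the first 2 comparisons without passing (limma, adjusted p = 0.0677 and 0.0658), and both passed without the CA3 arrays that carried the most granule or CA1 markers (adjusted p = 0.0172 and 0.0198). Both also passed without rTg4510 mouse4549 (limma, adjusted p = 0.0402 and 0.0131), the first without tTA mouse4592 (0.0309) and the second without tTA mouse4570 (0.034).

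Subfield differences were then tested inside the transgenic genotypes, which the choice of genes did not use. In rTg4510 mice 5 of 7 probe sets were called lower in CA3 than in DG, against 8.87% of all, and in tTA mice 5 of 7, against 8.52%. These were both Bcl6 and all 3 C1ql3 probe sets. Bcl6 1421818_at was lower in CA3 by -2.75 ± 0.17 (SE) in rTg4510 mice and by -2.78 ± 0.19 in tTA mice (limma, adjusted p = 2.21e-16 and 7.43e-15), and lower in 6 of 6 and 5 of 5 mice. C1ql3 1451620_at was lower by -4.35 ± 0.44 in rTg4510 mice and by -4.44 ± 0.49 in tTA mice (limma, adjusted p = 1.68e-10 and 1.98e-09), again in every mouse with both arrays. Doc2b, near the bottom of the scale in both subfields, did not pass in either genotype, at -0.14 (interval -0.45 to 0.18) and -0.13 (-0.44 to 0.19) in rTg4510 mice and -0.31 (-0.65 to 0.04) and -0.47 (-0.82 to -0.12, limma, adjusted p = 0.052) in tTA mice. In tTA mice 1420667_at did pass without mouse4592 or mouse4626 (limma, adjusted p = 0.0462 and 0.0337).

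Against CA1, 4 of 7 probe sets were called lower in CA3 in rTg4510 mice, with 7.6% of all, and 5 of 7 in tTA mice, with 6.26%. Bcl6 1421818_at was lower by -2.21 ± 0.18 (SE) in rTg4510 mice and by -3.01 ± 0.19 in tTA mice (limma, adjusted p = 1.04e-12 and 2.84e-16). Doc2b 1420666_at was lower by -0.75 ± 0.16 in rTg4510 mice and by -1.78 ± 0.17 in tTA mice (limma, adjusted p = 0.000838 and 5.77e-11), in 5 of 5 mice of each genotype. In rTg4510 mice its means, 3.899 in CA1 and 3.14 in CA3, both lay at levels that cannot be told from background. The rTg4510 arrays of CA3 and CA1 overlapped for both Doc2b probe sets, so no subfield difference is read from those calls. C1ql3 1425175_at and 1425176_at were not called in either genotype, at 0.14 (interval -0.72 to 0.999) and -0.21 (-0.63 to 0.20) in rTg4510 mice and -0.70 (-1.59 to 0.20) and -0.38 (-0.81 to 0.05) in tTA mice. C1ql3 1451620_at passed in tTA mice alone, at -1.41 ± 0.49 (limma, adjusted p = 0.0477), and lost the call without tTA mouse4570, mouse4592 or mouse4626, without the mouse as a block (adjusted p = 0.0787), with array weights (0.0758) and with the Actb covariate (0.0564). Doc2b 1420667_at, at -0.50 ± 0.17 in rTg4510 mice, lost its call without rTg4510 mouse4535, mouse4549, mouse4600 or mouse4666 (adjusted p 0.0647 to 0.154).

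Between CA1 and DG, C1ql3 and Doc2b stood in opposite order, but the Doc2b order was bound by its low level in DG. Doc2b averaged 3.62 and 3.53 in DG of tTA mice and 3.28 and 3.13 in DG of rTg4510 mice, near background. A large difference could therefore come out only as higher in CA1. In rTg4510 mice the CA1 means of Doc2b, 3.899 and 3.50, cannot be told from background either. C1ql3 was lower in CA1 than in DG by all 3 probe sets, by -2.39 to -4.53 in rTg4510 mice and by -1.90 to -3.07 in tTA mice. Doc2b was higher in CA1 than in DG by both probe sets in tTA mice, at 1.48 ± 0.17 (SE) and 1.39 ± 0.17 (limma, adjusted p = 7.97e-09 and 4.23e-08), and by 1420666_at in rTg4510 mice, at 0.61 ± 0.16 (limma, adjusted p = 0.00846), a call lost without rTg4510 mouse4549 or mouse4666 (adjusted p = 0.075 and 0.0526). In all, 4 of 7 probe sets were called lower and 1 higher in rTg4510 mice, with 6.09% and 6.41% of all, and 3 lower and 2 higher in tTA mice, with 7.8% and 8.14%. Bcl6 1421818_at was lower in CA1 in rTg4510 mice (-0.55 ± 0.18, adjusted p = 0.0356), but not without the mouse as a block (adjusted p = 0.0627) or without mouse4535, mouse4600, mouse4653 or mouse4666 (adjusted p 0.0656 to 0.233).

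Within CA3, the arrays with the highest C1ql3 by 1425175_at and 1451620_at also carried the most granule marker signal of their groups. Array mouse4549 among rTg4510, mouse4637 among tTA and mouse4886 among DN mice read 6.94, 6.72 and 5.66 for C1ql3 1451620_at, and had granule marker means of 6.10, 5.37 and 5.23, the highest of their groups. By 1425176_at, the brightest C1ql3 probe set, mouse4549 (7.59) and mouse4886 (7.01) were again the highest of their groups, but mouse4637 was the lowest tTA array (6.29) and mouse4592 the highest (6.997). Calb1, a calcium buffer rich in granule cells and used as a marker here, read 7.78, 6.60 and 6.78 in mouse4549, mouse4637 and mouse4886. It was as high in tTA mouse4592 (6.61), and it averaged 8.96 in CA1 of DN mice. Prox1, another of the granule markers, read 5.27, 2.85 and 3.95 in mouse4549, mouse4637 and mouse4886. Among tTA mice, Prox1 in CA3 was highest in mouse4626 (4.56), not in mouse4637. Array mouse4592, a tTA mouse, had a CA1 marker mean of 7.005 in CA3, the highest of the CA3 arrays, and the highest tTA value of Bcl6 1421818_at, 6.87. When the CA3 arrays of rTg4510 mouse4549 and tTA mouse4592 and mouse4637 were left out, the counts of called probe sets against DG (5 in rTg4510 and 5 in tTA mice) and against CA1 (4 and 5) were the same as with them. The part of neighboring cells in the CA3 level of these genes was not tested beyond that.

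**Figure D4:**
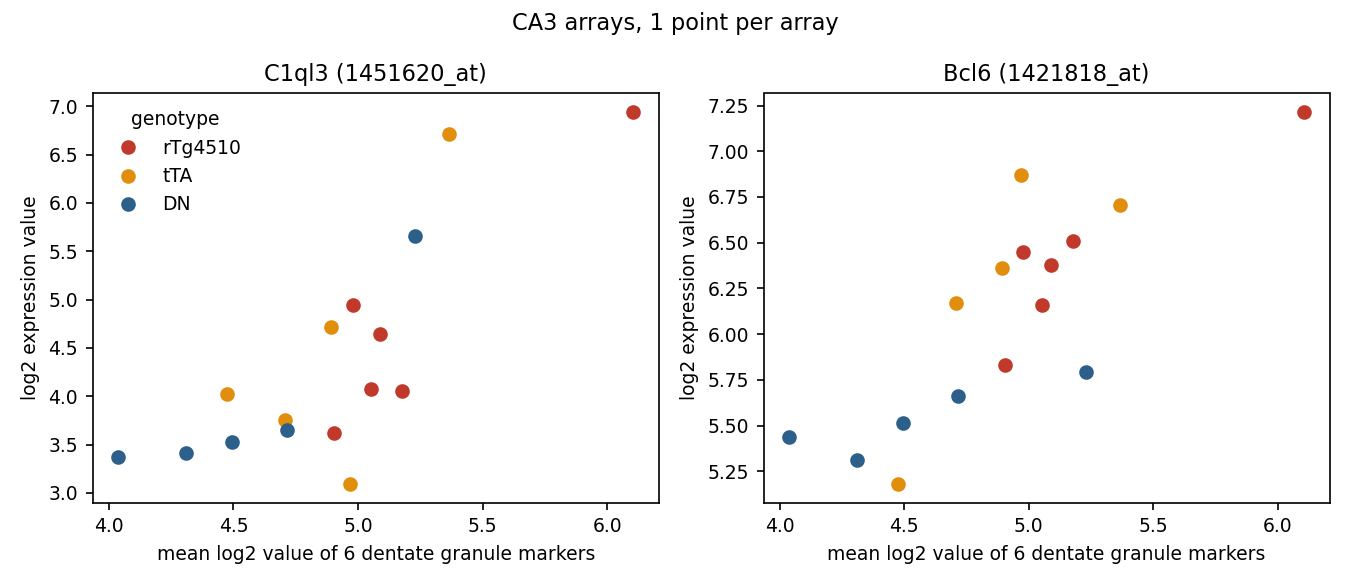
C1ql3 1451620_at and Bcl6 1421818_at (vertical axes, log2) against the mean of 6 dentate granule markers (horizontal axis, log2) in the 16 CA3 arrays, 1 point per array, colored by genotype. The array furthest to the right, rTg4510 mouse4549, had a marker mean of 6.10 and the highest value of both genes, 6.94 and 7.21.

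Among genes of evoked transmitter release, 17 of 22 listed had a probe set. Doc2a, the paralog of Doc2b, fell by 0.66 in rTg4510 against tTA CA1 (SE 0.17, limma, adjusted p = 0.0182), with means of 6.58 in rTg4510, 7.25 in tTA and 6.72 in DN mice. Unlike Doc2b it was higher in tTA than in DN CA1, by 0.53 ± 0.16 (SE, limma, adjusted p = 0.0359). In CA1 of rTg4510 against tTA mice 1 gene of the list was higher, Syt4, a synaptotagmin of dense-core vesicles (0.53), and 3 were lower, Doc2a, the synaptotagmin Syt5 (-0.79) and the SNARE protein Stx1a (-0.67), where 6.01% of all probe sets were higher and 4.62% lower. No gene of the list was called in CA3 or DG, where 1.13% and 0.782% of all were called. In tTA against DN mice, 1 gene of the list was higher and 3 were lower in CA1, 2 were lower in CA3, and 1 was higher and 1 lower in DG. Of all probe sets, 7.31% were higher and 8.85% lower in CA1, 4.97% lower in CA3, and 7.22% higher and 9.44% lower in DG. Nothing particular to the list is read from these counts. For rTg4510 minus tTA in CA1, the median difference of the list was 0.11, beside -0.03 over all probe sets. For tTA minus DN in CA1 it was -0.10, beside 0.05.

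Of the C1q-like and cerebellin factors and their receptors, 5 of 17 had a probe set, and none was called between rTg4510 and tTA mice in any subfield. C1ql1, the one paralog of C1ql3 with a value, was dim, with means of 4.42 in rTg4510, 4.38 in tTA and 3.95 in DN CA1. It was higher in tTA than in DN mice in CA3, by 0.46 ± 0.12 (SE, limma, adjusted p = 0.0286), and in DG, by 0.72 ± 0.23 (adjusted p = 0.0422), and not called in CA1. Larger differences of the list in tTA against DN mice were downward: Nptx1, a neuronal pentraxin, was lower in CA1 (-1.70 ± 0.20, limma, adjusted p = 6.46e-05), CA3 (-0.60 ± 0.15, adjusted p = 0.0233) and DG (-0.96 ± 0.15, adjusted p = 0.000323). Grik2, a kainate receptor subunit, was lower in CA1 (-0.72 ± 0.16, limma, adjusted p = 0.00615) and DG (-0.85 ± 0.20, adjusted p = 0.00776). C1ql2 and C1ql4 were not analysed here.

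Of the Bcl6 corepressors and repressed targets, 20 of 26 had a probe set. In rTg4510 against tTA CA1, 2 were higher, the cyclin Ccnd2 (1.12 ± 0.25, SE) and the cell cycle inhibitor Cdkn1a (1.85 ± 0.27, limma, adjusted p = 0.0101 and 0.000715), and 1 was lower, the histone deacetylase Hdac5 (-0.83 ± 0.22, adjusted p = 0.0258), beside 6.01% of all probe sets higher and 4.62% lower, so nothing particular to the list is read from this count. Hdac5 was also lower in CA3 (-0.81 ± 0.16, adjusted p = 0.0246), and 0 were called in DG. In tTA against DN mice, 2 genes of the list were higher and 2 lower in CA1, 2 higher in CA3, and 3 higher and 1 lower in DG. Of all probe sets, 7.31% were higher and 8.85% lower in CA1, 4.12% higher in CA3, and 7.22% higher and 9.44% lower in DG. These counts too are not read as particular to the list. Hdac5 was higher in tTA than in DN mice in all 3 subfields (0.99, 0.83 and 0.83 in CA1, CA3 and DG). The paralog Bcl6b was dim, at 5.04 in rTg4510, 4.83 in tTA and 4.64 in DN CA1, and was not called between rTg4510 and tTA mice in any subfield.

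Over the 9 group means, the genes most like Doc2b were Abhd17c, Sall2, Fez1, Penk and Rchy1 (Pearson r 0.94 to 0.96, among 6146 candidates). Penk encodes the precursor of enkephalin peptides, and its means were 6.52 in rTg4510, 6.46 in tTA and 8.57 in DN CA1, 5.46, 5.22 and 8.45 in DG and 4.59, 3.98 and 4.16 in CA3. Penk also ranked first for Doc2b over the 49 arrays (r = 0.905). The genes most like Bcl6 were Spon1, Dab1, Fam81a, Usp1 and Sowaha (r 0.98 to 0.99). Spon1, an extracellular matrix protein, averaged 8.19 in rTg4510, 8.75 in tTA and 9.24 in DN CA1 and 6.26, 6.19 and 5.88 in CA3. The genes most like C1ql3 were Gpd1, Sesn1, Ski, Gpsm2 and Ier5 (r 0.97 to 0.99). Group means share the mice and the array normalization, so these are descriptions with n = 9.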

How the data were processed

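Arrays of laser-captured cell layers were summarised by the authors with RMA, and the deposited values are log2 expression per probe set. The methods name anti-log values, whereas those in the table ran from 1.944 to 13.826, a log scale that was taken as base 2. No further normalization was applied. Of 22716 probe sets, 90 control probe sets were left out. The probe table of the platform gave the symbols, and 1 further probe set that names C1ql3 together with Pter was not counted as a member.

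Genotypes were compared within each subfield by limma version 3.58.1 in R version 4.3.3, in a model of the 3 genotypes. Subfields, and genotype differences between them, were compared in a model of 9 groups over 49 arrays with the mouse as a random block (within-mouse correlation 0.117). P-values were adjusted by Benjamini-Hochberg over 22626 probe sets, with calls at 0.05. The pairing comes from the mouse number in the sample titles. Over 47 same-mouse pairs of arrays, deviations from the group means correlated at a median of 0.12 (range -0.15 to 0.32). Each mouse is a separate animal. Precision is limited by the number of arrays. The steps were tested on simulated data.

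The genes and the lists were chosen with earlier results of these data known. Named were all probe sets of the members, list genes called between rTg4510 and tTA in any subfield, the paralogs, and for each member the 5 genes with the highest correlation over the 9 group means. Nptx1 and Grik2 were named outside this rule, for their calls between tTA and DN mice. Alternatives for all comparisons were array weights, repeated quantile normalization, only brighter probe sets, and leaving out each mouse of the genotypes compared. A covariate for the Actb 3-prime to 5-prime ratio was used as well. Comparisons in the 9-group model were also run with no block. Genotype comparisons within a subfield were also run with the least significant difference test, with 2 genotypes alone, and in the 9-group model with the block. Leaving out 3 CA3 arrays with high granule or CA1 markers was added after seeing the data.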

Additional observations from a re-analysis of the deposited data

Results flagged for a closer look

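In 3 of 63 groups of a probe set, 1 array lay far from the others by Dixon's criterion, which by chance marks about 1 group in 20. Doc2b 1420666_at read 7.12 in CA1 of DN mouse4883, the lowest of its group, with the next at 7.42. C1ql3 1425175_at read 6.75 in CA3 of tTA mouse4637, with the next at 5.00, and C1ql3 1451620_at read 5.66 in CA3 of DN mouse4886, with the next at 3.65.

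The rTg4510 minus tTA difference in Doc2b gave 1.03 and 1.36 for CA3 minus CA1 by its 2 probe sets, and -0.86 and -1.02 for CA1 minus DG. These values passed the test of the difference, but tTA mice averaged only 3.31 and 3.06 in CA3 and 3.62 and 3.53 in DG, near background. Only a small fall could be seen there, so the test does not show that the subfields responded differently.

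Bcl6 1421818_at differed in direction between subfields when rTg4510 mice were set against DN mice. Every rTg4510 array lay below every DN array in CA1 (-1.08) and in DG (-0.42), and every rTg4510 array lay above every DN array in CA3 (0.88). The second Bcl6 probe set, 1450381_a_at, was lower without overlap in CA1 (-1.15) but overlapped with DN arrays in CA3 (0.47) and DG (-0.32). In CA3 the granule marker mean had a median of 5.07 in rTg4510 and 4.49 in DN mice, and its part was not tested. DN arrays had chosen the gene, and the difference in direction of 1421818_at was not tested.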

How the results depend on the processing

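When each mouse was left out in turn, 686 values kept their direction and their side of the threshold, 36 changed sign, 21 lost a call and 9 gained one. Under the other alternatives 530 kept both, 9 changed sign, 5 lost a call and 6 gained one. The least significant difference test, run only for genotype comparisons within a subfield, changed no call. The causes were not tested except where named. Without the replicate block, which pairs arrays of a mouse, Bcl6 1421818_at differed between CA1 and DG of rTg4510 mice by -0.54 (limma, adjusted p = 0.0627). With rTg4510 and tTA mice alone in the model, its difference in CA1 was -0.63 (adjusted p = 0.0788). Limiting the test to brighter probe sets left out both Doc2b probe sets, which are dim. The counts called were then 3 for CA1 against DG in tTA mice, 2 and 3 for CA3 against CA1 in rTg4510 and tTA mice, 1 for rTg4510 against tTA in CA1, and 1 each for that difference in CA1 minus DG and in CA3 minus CA1. The last 2 were Bcl6 1421818_at, at -0.78 and 0.81 (adjusted p = 0.0374 and 0.0381), which also passed with the Actb covariate, at -0.84 and 0.92 (0.0427 and 0.0436), and without the 3 CA3 arrays of high granule or CA1 markers, at -0.77 and 1.02 (0.0198 and 0.0172).

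The changes of sign were among differences that were not called. Array weights gave 0.053 for Bcl6 1450381_a_at in CA1 minus DG of tTA mice, and -0.0151 for Bcl6 1421818_at and -0.0545 for C1ql3 1451620_at in the rTg4510 minus tTA difference of CA3 minus DG. Repeated quantile normalization gave -0.0102 for Bcl6 1450381_a_at in DG of rTg4510 minus tTA mice. Without the 3 CA3 arrays, C1ql3 1425175_at and 1451620_at in CA3 minus CA1 of rTg4510 mice were -0.19 and -0.25. In the same setting the rTg4510 minus tTA difference was -0.0109 for C1ql3 1425176_at in CA3 minus CA1, and 0.0156 for Bcl6 1450381_a_at and -0.0383 for C1ql3 1451620_at in CA3 minus DG.

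Without each mouse in turn, the count called for CA1 minus DG in rTg4510 mice was 3 to 5. There Doc2b 1420666_at ran between 0.48 and 0.75 and Bcl6 1421818_at between -0.68 and -0.40. In tTA mice, Bcl6 1450381_a_at ran between -0.219 and 0.0268. In CA3 minus CA1 of rTg4510 mice, C1ql3 1425175_at ran between -0.162 and 0.584, and 1451620_at between -0.105 and 0.692. For rTg4510 minus tTA in CA1, the count called was 2 to 5 and Bcl6 1421818_at ran between -0.789 and -0.52. In CA3, where 0 were called, Doc2b 1420667_at ran between -0.117 and 0.037, Bcl6 1421818_at between -0.101 and 0.321 and 1450381_a_at between -0.226 and 0.232, C1ql3 1425175_at between -0.158 and 0.561, 1425176_at between -0.196 and 0.091 and 1451620_at between -0.194 and 0.816. In DG, Bcl6 1450381_a_at ran between -0.162 and 0.104. For the difference of CA1 minus DG, the count was 0 to 3, Doc2b 1420666_at ran between -1.07 and -0.691 and Bcl6 1421818_at between -0.915 and -0.629. For CA3 minus CA1, Bcl6 1421818_at ran between 0.567 and 0.996. For CA3 minus DG, Bcl6 1421818_at ran between -0.211 and 0.178 and 1450381_a_at between -0.248 and 0.129, C1ql3 1425175_at between -0.406 and 0.298 and 1451620_at between -0.328 and 0.62.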

Other observations

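One further probe set, 1453578_at, is listed for both C1ql3 and Pter, so its signal cannot be assigned to 1 gene. It averaged 6.62 ± 1.24 in rTg4510, 7.51 ± 0.96 in tTA and 10.20 ± 0.19 in DN mice in CA1 (SD, n = 5, 5 and 6), and 10.57 ± 0.11, 10.31 ± 0.17 and 11.59 ± 0.08 in DG. In CA3 it averaged 6.58 ± 1.10 in rTg4510, 6.30 ± 0.99 in tTA and 5.40 ± 1.44 in DN mice. For rTg4510 minus tTA, it differed by -0.89 in CA1, by 0.28 in CA3 and by 0.26 in DG without a call (limma, adjusted p = 0.295, 0.883 and 0.133).

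Over 49 arrays, C1ql3 was most like Sipa1l2 (r = 0.921) and Bcl6 most like Sowaha (r = 0.968), and 2 of the 5 genes nearest to Doc2b, Penk and Abhd17c, were the same over arrays and over group means.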
